A study of Homo sapiens with 12 samples.

Results

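The genes described here are the SR proteins, the heterogeneous nuclear ribonucleoproteins (hnRNPs) and the kinases that phosphorylate SR proteins, in hepatoma cells after knockdown of UBL5. They were chosen by symbol: every SRSF gene with a number, every gene whose symbol starts with HNRNP, and TRA2A, TRA2B, CLK1, CLK2, CLK3, CLK4, SRPK1 and SRPK2, without pseudogenes and antisense genes. This gave 42 genes, of 17640 listed in HepG2 and 18434 listed in Huh7. They comprise 12 SRSF genes, 2 TRA2 genes, 22 HNRNP genes, 4 CLK genes and 2 SRPK genes. All 42 are protein-coding, all were listed in both lines, and all passed the filter on low counts in both lines. HepG2 and Huh7 are established human hepatoma lines, both labelled as wild type. Each was transfected with UBL5 siRNA or with a non-targeting Ctrl-siRNA by lipofectamine RNAiMAX, and RNA was taken at the labelled time of 52 h, whereas the study's text gives an earlier time for the isolation of RNA. Each line gave 3 libraries with UBL5 siRNA and 3 with Ctrl-siRNA, 12 libraries in 4 groups. No source states if the replicate libraries of a group came from separate transfections, so p-values measure only the library-to-library spread, which may be technical.

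SR proteins carry RNA-recognition motifs and a domain rich in arginine and serine, and by binding exonic enhancers they help the spliceosome to define exons. The hnRNPs coat nascent transcripts, often act against SR proteins at splice sites, and also take part in mRNA export, decay and translation. SRPK kinases phosphorylate the arginine-serine domain mainly in the cytoplasm, which lets SR proteins enter the nucleus, and CLK kinases phosphorylate it further in the nucleus, which releases SR proteins from nuclear speckles. Many SR protein and hnRNP genes control their own level through exons or introns whose use leads to nonsense-mediated decay (NMD). UBL5, the human homolog of yeast Hub1, is a ubiquitin-like protein that binds spliceosome components without being conjugated to them. The question addressed here is how the mRNA levels of these splicing regulators differed between cells with UBL5 siRNA and cells with Ctrl-siRNA.

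UBL5 mRNA was low in every library labelled UBL5 siRNA. In HepG2 its UBL5 siRNA libraries stood at 6.88, 4.31 and 2.80 CPM, against 60.4, 55.5 and 58.7 CPM in its Ctrl-siRNA libraries. In Huh7 its UBL5 siRNA libraries stood at 6.45, 6.67 and 5.80 CPM, against 68.1, 70.8 and 67.1 CPM in its Ctrl-siRNA libraries. The unit is CPM, a gene's read count relative to the scaled total of its library. HepG2 libraries held 19983681 to 24245412 counts (UBL5 siRNA) and 23672962 to 29744471 counts (Ctrl-siRNA), and Huh7 libraries 20710925 to 22126273 counts (UBL5 siRNA) and 19469574 to 27158770 counts (Ctrl-siRNA). One HepG2 library, the third replicate of Ctrl-siRNA, had 1773 listed genes at a count of 0, against 159 to 233 in the other 5. Results that rest on this library are given with and without it. Mitochondrial transcripts took 2.75% to 3.61% of the counts of UBL5 siRNA libraries and 1.91% to 2.35% of Ctrl-siRNA libraries in HepG2, and 2.66% to 3.72% with UBL5 siRNA and 2.46% to 3.30% with Ctrl-siRNA in Huh7, and their part in the results was not tested. Of 12 hepatocyte markers all were listed in both lines, and their summed level was 55277 to 65262 CPM with UBL5 siRNA and 58118 to 63505 CPM with Ctrl-siRNA in HepG2. In Huh7 it was 33195 to 33978 CPM with UBL5 siRNA and 31867 to 33620 CPM with Ctrl-siRNA. Markers of other cell types were low but some moved with the siRNA. Of 6 leukocyte markers, 2 were listed in HepG2 and 1 in Huh7, and their summed level was 5.56 to 9.15 CPM with UBL5 siRNA and 1.99 to 3.46 CPM with Ctrl-siRNA in HepG2, and 4.34 to 5.38 CPM with UBL5 siRNA and 1.49 to 1.75 CPM with Ctrl-siRNA in Huh7. Both rises were those of CD14. All 6 fibroblast and stellate markers were listed. Their sums in HepG2 were 10.3 to 26.1 CPM with UBL5 siRNA and 7.81 to 14.0 CPM with Ctrl-siRNA. In Huh7 they were 18.0 to 30.9 CPM with UBL5 siRNA and 31.6 to 35.3 CPM with Ctrl-siRNA. Single markers moved in opposite directions. In Huh7 LUM averaged 9.51 CPM with UBL5 siRNA against 27.7 CPM with Ctrl-siRNA. COL1A1 averaged 6.05 against 2.67 CPM there, and PDGFRB 3.59 against 2.06 CPM. In HepG2 COL1A1 averaged 6.29 CPM with UBL5 siRNA against 1.79 CPM with Ctrl-siRNA, while the PDGFRB groups overlapped. COL3A1, 1 of these markers, was highest in UBL5 siRNA replicate 2 of HepG2 (4.10 CPM) and UBL5 siRNA replicate 3 of Huh7 (4.36 CPM), and at most 0.397 CPM in any other library. The same 2 libraries were highest in their line for COL1A1 (9.15 and 7.71 CPM), COL1A2 (4.51 and 4.83 CPM) and DCN (1.04 and 1.21 CPM). LUM was highest in that HepG2 library (0.870 CPM) but not in that Huh7 library, and PDGFRB was highest in neither. Of 6 endothelial markers, 3 were listed in HepG2 and 1 in Huh7. Their sums in HepG2 were 2.91 to 6.17 CPM with UBL5 siRNA and 4.06 to 6.78 CPM with Ctrl-siRNA. These sums hide opposite changes in HepG2. CDH5 averaged 2.30 CPM with UBL5 siRNA against 0.0674 CPM with Ctrl-siRNA. PECAM1 averaged 2.63 against 5.29 CPM, and CLDN5 0 against 0.252 CPM. In Huh7 the level was at most 0.650 CPM with UBL5 siRNA and 0.668 CPM with Ctrl-siRNA. The part of these markers in the results was not tested.

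Most of the splicing regulators that changed were higher with UBL5 siRNA. In HepG2, 17 of the 42 genes (40.5%) rose and 3 (7.14%) fell by edgeR's quasi-likelihood test, with p-values adjusted by Benjamini-Hochberg over the 15755 genes tested and a threshold of 0.05. Over all genes tested in HepG2, 16.5% rose and 20.1% fell. Among protein-coding genes in HepG2, 19.3% rose and 23.8% fell. In Huh7, 31 of the 42 genes (73.8%) rose and 2 (4.76%) fell, where 34.9% of the 16965 genes tested rose and 36.4% fell. Among protein-coding genes in Huh7, 38.2% rose and 37.9% fell. The median log2 fold change of the 42 genes, UBL5 siRNA over Ctrl-siRNA, was 0.23 in HepG2 and 0.44 in Huh7, where the median over all genes tested was 0.01 in HepG2 and -0.01 in Huh7. The changes were moderate. They ran from -0.52 for HNRNPA3 to 1.08 for HNRNPD in HepG2 and from -0.29 for SRPK1 to 1.54 for SRPK2 in Huh7. Without Ctrl-siRNA replicate 3, 17 genes rose and 3 fell in HepG2, where 20.9% of all genes tested rose and 24.1% fell. In bulk RNA, a change in the make-up of the culture and a change in RNA per cell cannot be told apart.

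**Figure D1:**
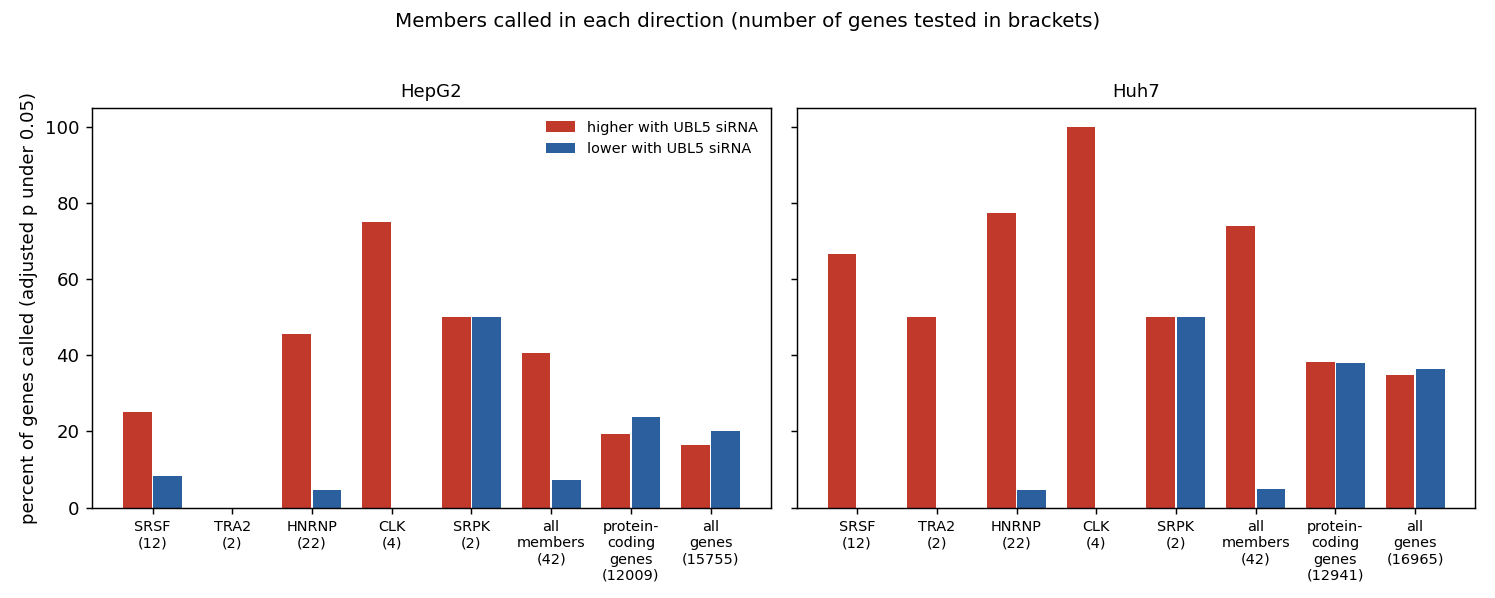
Percent of genes called higher (red) or lower (blue) with UBL5 siRNA than with Ctrl-siRNA in HepG2 (left panel) and Huh7 (right panel), by edgeR at an adjusted p under 0.05, for each family, for all 42 members, for protein-coding genes and for all genes tested, with the number of genes tested under each name. In both lines the bars of all members are higher for rises and lower for falls than the bars over all genes (40.5% and 7.14% of members in HepG2, 73.8% and 4.76% in Huh7).

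Between the lines, 16 genes rose in both (CLK1, CLK2, CLK3, SRPK2, SRSF3, SRSF7, SRSF11, HNRNPA1, HNRNPC, HNRNPD, HNRNPH1, HNRNPH2, HNRNPL, HNRNPM, HNRNPUL1 and HNRNPUL2) and 2 fell in both (SRPK1 and HNRNPA3). HNRNPA2B1 passed the test in HepG2 alone, and 14 genes passed it in Huh7 alone, all of them higher with UBL5 siRNA. SRSF4 passed it in opposite directions. The other 8 genes passed it in neither line. The share of all genes called in both lines was not counted, so these numbers describe the 42 genes only. The spread between libraries was wider in HepG2 than in Huh7 (biological coefficient of variation 0.189 and 0.0663), so a call in Huh7 alone does not by itself show a difference between the lines. Summed over the 42 genes, the level was 9732 ± 208 CPM with UBL5 siRNA and 8425 ± 483 CPM with Ctrl-siRNA in HepG2 (SD, n = 3 each), which is 15.5% higher. In Huh7 it was 11222 ± 167 CPM with UBL5 siRNA and 8902 ± 309 CPM with Ctrl-siRNA (SD, n = 3 each), which is 26.1% higher. In neither line did the summed levels of the UBL5 siRNA libraries overlap those of the Ctrl-siRNA libraries.

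**Figure D2:**
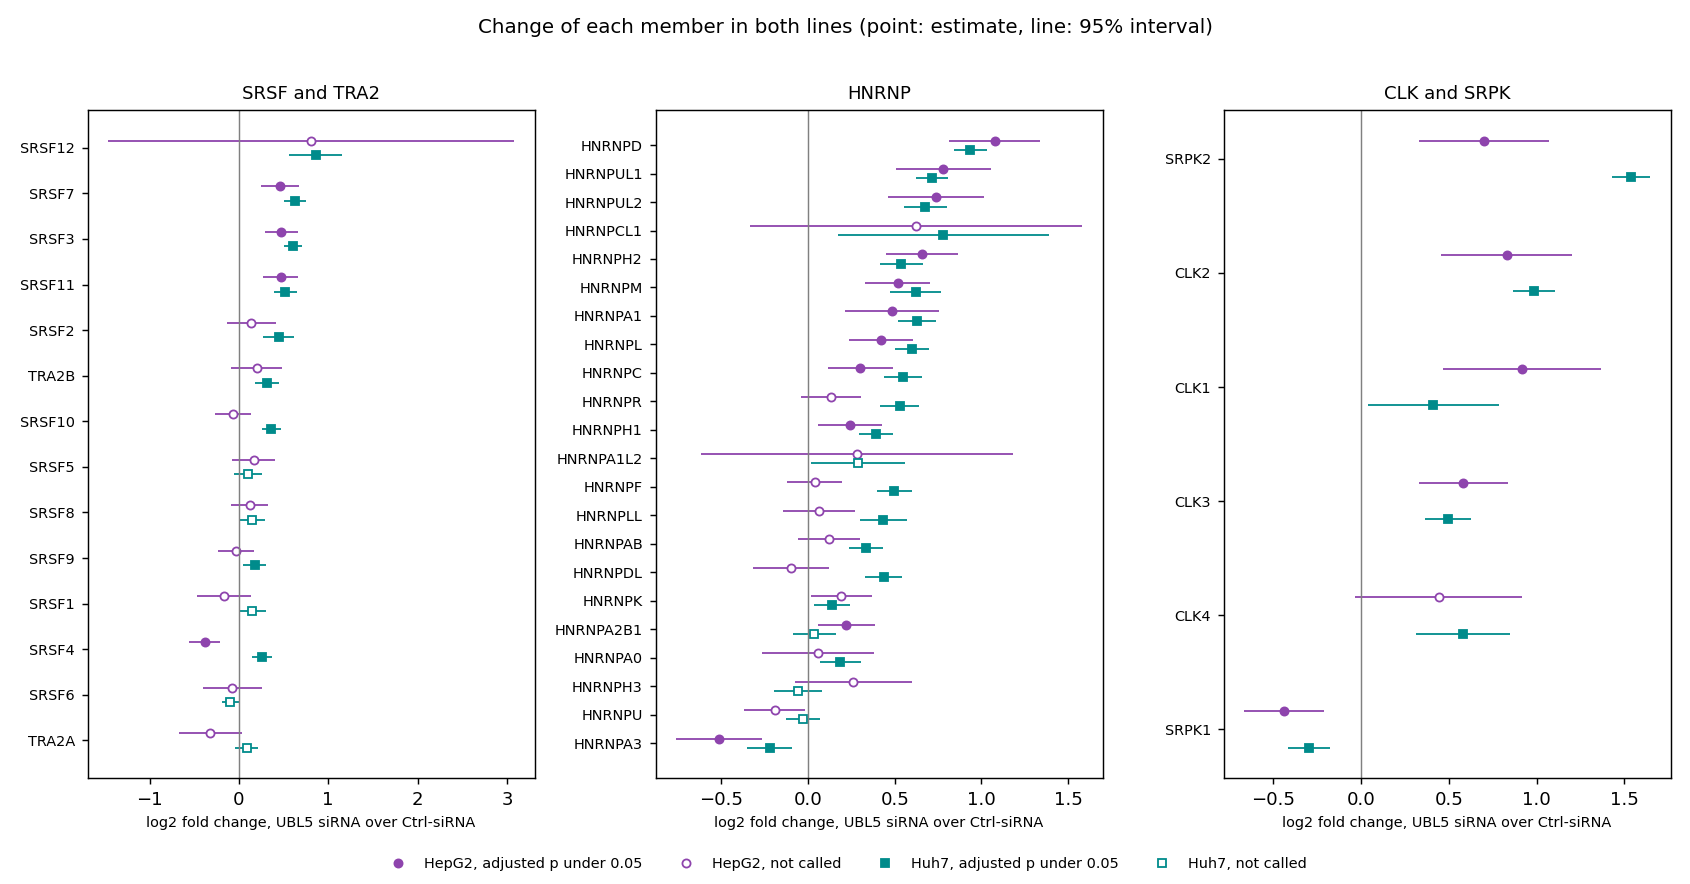
Log2 fold change of each of the 42 genes, UBL5 siRNA over Ctrl-siRNA, with its 95% interval, in HepG2 (circles) and Huh7 (squares), for SRSF and TRA2 genes, HNRNP genes and kinases (the 3 panels have their own x axes). Filled symbols passed an adjusted p under 0.05. Filled symbols lie to the right of 0 except SRSF4 in HepG2 and HNRNPA3 and SRPK1 in both lines.

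The kinases held the member with the largest change. SRPK2, 1 of the SRPK kinases that send SR proteins to the nucleus, had 136, 139 and 138 CPM in the UBL5 siRNA libraries of Huh7, against 49.3, 45.5 and 47.0 CPM in the Ctrl-siRNA libraries. The HepG2 libraries held 41.4, 42.8 and 46.0 CPM with UBL5 siRNA and 24.1, 22.1 and 33.8 CPM with Ctrl-siRNA. The libraries with UBL5 siRNA were above all those with Ctrl-siRNA in both lines. Its log2 fold change (± SE) was 1.54 ± 0.05 for Huh7 (adjusted p = 7.98e-10) and 0.70 ± 0.16 for HepG2 (adjusted p = 0.00979). The highest Ctrl-siRNA value in HepG2 came from replicate 3, and without that library the HepG2 value was 0.91 (adjusted p = 0.000333). SRPK1, the paralog of SRPK2, moved the other way. In HepG2 the values were 85.3, 81.5 and 80.9 CPM with UBL5 siRNA, against 122, 115 and 98.1 CPM with Ctrl-siRNA. The Huh7 libraries held 55.9, 55.1 and 56.4 CPM with UBL5 siRNA and 72.1, 66.0 and 66.9 CPM with Ctrl-siRNA. All UBL5 siRNA libraries were below all Ctrl-siRNA libraries in both lines, with a log2 fold change of -0.44 ± 0.10 for HepG2 (adjusted p = 0.00944) and -0.29 ± 0.05 for Huh7 (adjusted p = 0.000456). In HepG2 the call was lost without UBL5 siRNA replicate 2 (-0.40, adjusted p = 0.0510). SRPK1 shares 28.1% of its exon bases with LHFPL5 on the opposite strand, and since the strand setting of the counting is not given, reads from the shared bases cannot be assigned with certainty.

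All 4 CLK kinases, which act on SR proteins in nuclear speckles, had positive log2 fold changes in both lines. CLK2 had 42.7, 52.1 and 49.8 CPM in the UBL5 siRNA libraries of HepG2, against 30.2, 30.6 and 20.7 CPM in the Ctrl-siRNA libraries. In Huh7 the values were 118, 129.5 and 128 CPM with UBL5 siRNA, against 61.0, 62.6 and 65.9 CPM with Ctrl-siRNA. The groups did not overlap in either line, and the log2 fold change was 0.83 ± 0.16 for HepG2 (adjusted p = 0.00461) and 0.99 ± 0.05 for Huh7 (adjusted p = 2.71e-08). Without Ctrl-siRNA replicate 3, which had the lowest CLK2 level, the HepG2 value was 0.66 (adjusted p = 0.00204). CLK1 had 68.7, 75.9 and 121 CPM in the UBL5 siRNA libraries of HepG2, against 49.7, 43.1 and 47.4 CPM in the Ctrl-siRNA libraries. For Huh7 the 3 UBL5 siRNA libraries gave 59.3, 54.3 and 69.4 CPM and the 3 Ctrl-siRNA libraries 50.1, 31.0 and 56.5 CPM. In HepG2 UBL5 siRNA replicate 3 was the highest and no libraries overlapped, whereas in Huh7 the lowest UBL5 siRNA library was below the highest Ctrl-siRNA library. The CLK1 log2 fold change was 0.92 ± 0.20 for HepG2 (adjusted p = 0.00683) and 0.41 ± 0.17 for Huh7 (adjusted p = 0.0468). In Huh7 this call was lost by DESeq2 (0.43, adjusted p = 0.158), with total counts in place of TMM scaling (0.33, adjusted p = 0.1002), without Ctrl-siRNA replicate 2 (0.20, adjusted p = 0.118), which had the lowest level, without UBL5 siRNA replicate 1 (0.44, adjusted p = 0.0683) and without UBL5 siRNA replicate 3 (0.32, adjusted p = 0.139).

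CLK3 had 64.2, 75.9 and 81.9 CPM in the UBL5 siRNA libraries of HepG2, against 46.5, 50.1 and 51.6 CPM in the Ctrl-siRNA libraries. Huh7 cells had 112, 109.6 and 121 CPM with UBL5 siRNA and 79.5, 76.8 and 87.1 CPM with Ctrl-siRNA. Its libraries did not overlap, and it rose by a log2 of 0.58 ± 0.11 for HepG2 (adjusted p = 0.00402) and 0.50 ± 0.06 for Huh7 (adjusted p = 1.44e-05). CLK4 is the closest paralog of CLK1. Levels in Huh7 were 20.2, 22.3 and 22.3 CPM with UBL5 siRNA, against 15.6, 11.3 and 16.4 CPM with Ctrl-siRNA. For HepG2 the 3 UBL5 siRNA libraries gave 21.3, 24.7 and 32.7 CPM and the 3 Ctrl-siRNA libraries 17.3, 15.9 and 24.6 CPM. The groups were separate in Huh7, with a log2 fold change of 0.58 ± 0.12 (adjusted p = 0.00110), and overlapped in HepG2, where the value was 0.44 ± 0.21 (adjusted p = 0.132). In HepG2 the Ctrl-siRNA library with the highest CLK4 was replicate 3, and without it the value was 0.66 (adjusted p = 0.0149). With the replicate number as a block, which the HepG2 libraries allow because libraries with the same number deviated together, CLK4 in HepG2 was 0.45 (adjusted p = 0.0178). Summed over the 4 CLK genes, the level was 237 ± 44.5 CPM with UBL5 siRNA and 143 ± 2.39 CPM with Ctrl-siRNA in HepG2, and 322 ± 16.2 CPM with UBL5 siRNA and 205 ± 22.1 CPM with Ctrl-siRNA in Huh7 (SD, n = 3 each).

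**Figure D3:**
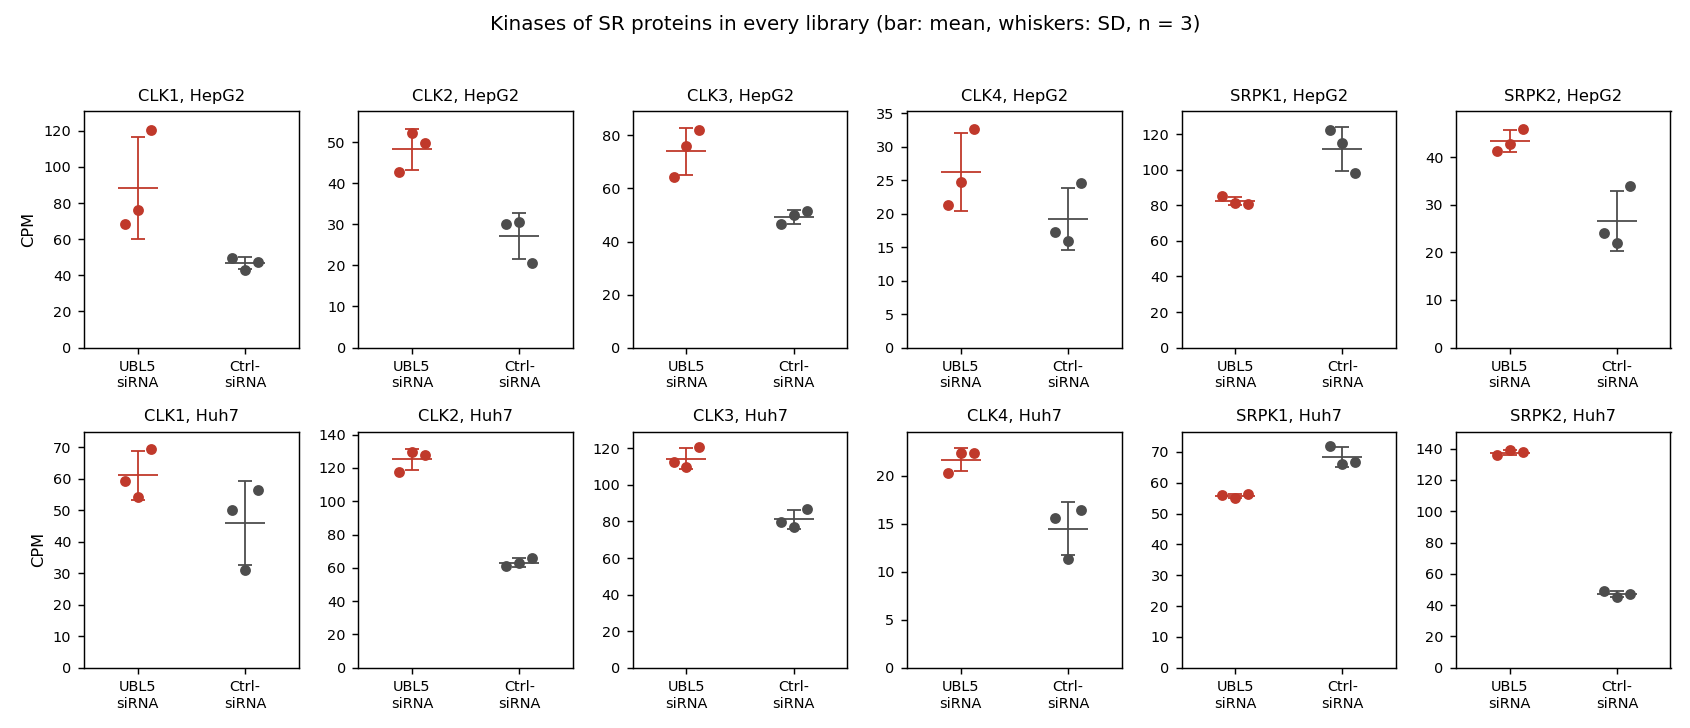
CPM of the 6 kinases in each library of HepG2 (top row) and Huh7 (bottom row), UBL5 siRNA in red and Ctrl-siRNA in grey, with the mean and SD (n = 3), each panel on its own y axis that starts at 0. In Huh7 the 3 UBL5 siRNA libraries of SRPK2 sit between 136 and 139 CPM and the 3 Ctrl-siRNA libraries between 45.5 and 49.3 CPM, while SRPK1 is lower with UBL5 siRNA in both lines.

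The start regions of SRPK2 and CLK2 are shown because these kinases rose most in Huh7 and only CLK2 holds any of the short motifs searched. Each sequence is the RefSeq stretch from 250 bases before to 50 bases after the annotated start on GRCh38.p14, 5′ to 3′ on the gene's strand, at chr7:105389342-105389641, minus strand, for SRPK2 and at chr1:155273455-155273754, minus strand, for CLK2. Capitals mark exact matches, on either strand, to a TATA box (TATAAA), GC box (GGGCGG), palindromic E-box (CACGTG) or ETS motif (CCGGAAG).
SRPK2: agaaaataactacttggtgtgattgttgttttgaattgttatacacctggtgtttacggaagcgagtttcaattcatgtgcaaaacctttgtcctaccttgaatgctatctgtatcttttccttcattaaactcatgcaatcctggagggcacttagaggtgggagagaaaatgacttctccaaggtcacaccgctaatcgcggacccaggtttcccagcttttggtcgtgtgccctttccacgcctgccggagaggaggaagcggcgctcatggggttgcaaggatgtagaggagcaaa
CLK2: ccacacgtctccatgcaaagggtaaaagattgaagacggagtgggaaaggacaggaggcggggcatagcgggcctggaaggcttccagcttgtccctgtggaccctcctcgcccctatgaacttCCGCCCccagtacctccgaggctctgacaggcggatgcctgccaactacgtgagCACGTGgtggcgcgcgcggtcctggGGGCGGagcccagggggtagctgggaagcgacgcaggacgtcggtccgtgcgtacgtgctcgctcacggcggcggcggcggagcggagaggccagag
CLK2 holds an E-box that begins 72 bases before the start and 2 GC boxes. None of these motifs is in the SRPK2 window. Only 1 annotated start per gene was searched, here and below, and motifs at other starts were not looked for. Both windows lie inside the annotated gene, which on the minus strand begins at 105399308 for SRPK2 and at 155278491 for CLK2. A match is a description of the sequence and not of binding.

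Of the 12 SRSF genes, 3 rose (25.0%, against 16.5% of all genes tested) and 1 fell (8.33%, against 20.1%) in HepG2, with a median log2 fold change of 0.13. In Huh7, 8 rose (66.7%, against 34.9%) and 0 fell (against 36.4%), with a median of 0.31. SRSF3, SRSF7 and SRSF11 rose in both lines. SRSF3, the smallest SR protein and an adaptor for mRNA export, had 457, 429.9 and 462 CPM in the UBL5 siRNA libraries of HepG2, against 341, 297 and 333 CPM in the Ctrl-siRNA libraries. In Huh7 its UBL5 siRNA libraries stood at 495, 482 and 468 CPM, against 330.2, 311 and 307 CPM in its Ctrl-siRNA libraries. All UBL5 siRNA libraries were above all Ctrl-siRNA libraries in both lines, and the log2 fold change was 0.47 ± 0.08 for HepG2 (adjusted p = 0.00238) and 0.61 ± 0.05 for Huh7 (adjusted p = 3.22e-07). SRSF7, an SR protein with a zinc knuckle that also serves mRNA export, had 268, 229 and 239 CPM in the UBL5 siRNA libraries of HepG2, against 194, 172 and 168 CPM in the Ctrl-siRNA libraries. The Huh7 libraries held 264, 266 and 254 CPM with UBL5 siRNA and 183, 166 and 159 CPM with Ctrl-siRNA. Its groups were also separate in both lines, at 0.46 ± 0.09 for HepG2 (adjusted p = 0.00544) and 0.62 ± 0.06 for Huh7 (adjusted p = 1.22e-06). SRSF11, an SR-related splicing factor also called p54, had 219, 219 and 240.1 CPM in the UBL5 siRNA libraries of HepG2, against 177, 158 and 155 CPM in the Ctrl-siRNA libraries. In Huh7 the values were 223, 229.8 and 217 CPM with UBL5 siRNA, against 169, 146 and 151 CPM with Ctrl-siRNA. Again no libraries overlapped, and SRSF11 rose by a log2 of 0.47 ± 0.09 for HepG2 (adjusted p = 0.00331) and 0.52 ± 0.06 for Huh7 (adjusted p = 7.27e-06).

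SRSF4, also called SRp75, passed the test in opposite directions. HepG2 cells had 89.8, 87.4 and 88.6 CPM with UBL5 siRNA and 111, 117 and 118 CPM with Ctrl-siRNA. For Huh7 the 3 UBL5 siRNA libraries gave 107, 105 and 110.2 CPM and the 3 Ctrl-siRNA libraries 86.5, 89.2 and 94.6 CPM. The UBL5 siRNA libraries were all below the Ctrl-siRNA libraries in HepG2 and all above them in Huh7, at -0.38 ± 0.08 for HepG2 (adjusted p = 0.00536) and 0.26 ± 0.05 for Huh7 (adjusted p = 0.000653). Both calls held under every alternative tried. SRSF12, an SR-like protein that acts against SR proteins and has a low level in both lines, had 6.90, 8.46 and 8.36 CPM in the UBL5 siRNA libraries of Huh7, against 4.80, 3.79 and 4.41 CPM in the Ctrl-siRNA libraries. Levels in HepG2 were 1.59, 1.16 and 1.56 CPM with UBL5 siRNA, against 1.34, 1.13 and 0 CPM with Ctrl-siRNA. In Huh7 the groups were separate, with a log2 fold change of 0.86 ± 0.13 (adjusted p = 0.000129). In HepG2 the count of 0 was in Ctrl-siRNA replicate 3, and without that library the HepG2 value was 0.21 (adjusted p = 0.581). SRSF9, also called SRp30c, had 72.8, 83.7 and 77.5 CPM in the UBL5 siRNA libraries of Huh7, against 70.0, 68.3 and 68.7 CPM in the Ctrl-siRNA libraries. In HepG2 its UBL5 siRNA libraries stood at 80.6, 74.5 and 72.5 CPM, against 75.2, 75.5 and 82.4 CPM in its Ctrl-siRNA libraries. In Huh7 it rose by a log2 of 0.18 ± 0.06 (adjusted p = 0.0166), a call lost with total counts (0.09, adjusted p = 0.166), without Ctrl-siRNA replicate 2 (0.17, adjusted p = 0.0569) and without UBL5 siRNA replicate 2 (0.14, adjusted p = 0.0762). In HepG2 the groups overlapped, at -0.03 ± 0.09 (adjusted p = 0.795). SRSF9 shares 46.7% of its exon bases with other genes, mostly GATC on the opposite strand.

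SRSF10 and SRSF2 passed the test in Huh7 alone. SRSF10, also called SRp38, a splicing repressor when it is dephosphorylated, had 206, 217 and 207 CPM in the UBL5 siRNA libraries of Huh7, against 170.0, 162 and 158 CPM in the Ctrl-siRNA libraries. The HepG2 libraries held 139, 133 and 130.2 CPM with UBL5 siRNA and 155, 134 and 134 CPM with Ctrl-siRNA. Its groups were separate in Huh7 and overlapped in HepG2, at 0.36 ± 0.05 for Huh7 (adjusted p = 2.71e-05) and -0.07 ± 0.09 for HepG2 (adjusted p = 0.591). SRSF2, the speckle protein SC35, was at 0.44 ± 0.08 for Huh7 (adjusted p = 0.000289) and 0.14 ± 0.12 for HepG2 (adjusted p = 0.405), and 27.7% of its exon bases lie in other genes, mostly MFSD11 on the opposite strand. SRSF1, SRSF5, SRSF6 and SRSF8 passed the test in neither line. Their log2 fold changes ran from -0.17 for SRSF1 to 0.17 for SRSF5 in HepG2, and from -0.10 for SRSF6 to 0.15 for SRSF1 in Huh7. In Huh7, where intervals were narrow, these 4 genes passed the test when single libraries were left out: SRSF1 and SRSF8 without Ctrl-siRNA replicate 1 (0.24, adjusted p = 0.00158, and 0.19, adjusted p = 0.0304), SRSF5 without Ctrl-siRNA replicate 2 (0.19, adjusted p = 0.0145) and SRSF6 without Ctrl-siRNA replicate 3 (-0.13, adjusted p = 0.0334). With total counts SRSF6 fell in Huh7 (-0.18, adjusted p = 0.00370), and without a filter on low counts SRSF1 (0.17, adjusted p = 0.0475) and SRSF8 (0.16, adjusted p = 0.0485) passed the test there.

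TRA2B and TRA2A are the human homologs of Drosophila transformer-2 and bind enhancers rich in purines. TRA2B had 293, 296 and 265 CPM in the UBL5 siRNA libraries of Huh7, against 248, 224 and 216 CPM in the Ctrl-siRNA libraries. In HepG2 the values were 314, 272 and 233 CPM with UBL5 siRNA, against 267, 232 and 213 CPM with Ctrl-siRNA. It rose in Huh7, where the groups were separate, at 0.31 ± 0.06 (adjusted p = 0.000673), and in HepG2, where they overlapped, it was 0.20 ± 0.13 (adjusted p = 0.247), or 0.20 (adjusted p = 0.0381) with the replicate number as a block. TRA2A averaged 49.0 ± 11.3 CPM with UBL5 siRNA and 61.2 ± 3.005 CPM with Ctrl-siRNA in HepG2, and 104 ± 0.448 CPM with UBL5 siRNA and 98.0 ± 7.25 CPM with Ctrl-siRNA in Huh7 (SD, n = 3 each). Its groups overlapped in both lines, at -0.32 ± 0.16 for HepG2 (adjusted p = 0.142) and 0.09 ± 0.06 for Huh7 (adjusted p = 0.192). With the block the HepG2 value was -0.34 (adjusted p = 0.0481). TRA2A passed the test without UBL5 siRNA replicate 1 in HepG2 (-0.51, adjusted p = 0.0174) and without Ctrl-siRNA replicate 1 in Huh7 (0.15, adjusted p = 0.0239).

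Of the 22 HNRNP genes, 10 rose (45.5%, against 16.5% of all genes tested) and 1 fell (4.55%, against 20.1%) in HepG2, with a median log2 fold change of 0.25. In Huh7, 17 rose (77.3%, against 34.9%) and 1 fell (4.55%, against 36.4%), with a median of 0.47. HNRNPD, also called AUF1, binds AU-rich elements of mRNAs and promotes their decay, and it had the largest change of the family. For HepG2 the 3 UBL5 siRNA libraries gave 354, 325 and 301 CPM and the 3 Ctrl-siRNA libraries 177, 153 and 134 CPM. Huh7 cells had 368, 386 and 387 CPM with UBL5 siRNA and 203, 195 and 199 CPM with Ctrl-siRNA. Every UBL5 siRNA library was above every Ctrl-siRNA library, and the log2 fold change was 1.08 ± 0.12 for HepG2 (adjusted p = 0.000286) and 0.94 ± 0.04 for Huh7 (adjusted p = 7.92e-09). HNRNPUL1 and HNRNPUL2, relatives of HNRNPU with a SAP domain and a part in the DNA damage response, also rose in both lines. HNRNPUL1 had 272, 273 and 219 CPM in the UBL5 siRNA libraries of HepG2, against 158, 159 and 128 CPM in the Ctrl-siRNA libraries. Levels in Huh7 were 391.8, 377 and 369.6 CPM with UBL5 siRNA, against 227, 232 and 235 CPM with Ctrl-siRNA. HNRNPUL1 rose by a log2 of 0.78 ± 0.12 for HepG2 (adjusted p = 0.00145) and 0.71 ± 0.04 for Huh7 (adjusted p = 5.13e-08). HNRNPUL2 had 35.1, 38.5 and 40.2 CPM in the UBL5 siRNA libraries of HepG2, against 25.3, 22.7 and 20.2 CPM in the Ctrl-siRNA libraries. In Huh7 its UBL5 siRNA libraries stood at 67.0, 63.9 and 66.3 CPM, against 40.7, 43.3 and 39.4 CPM in its Ctrl-siRNA libraries. HNRNPUL2 rose by a log2 of 0.74 ± 0.12 for HepG2 (adjusted p = 0.002002) and 0.68 ± 0.06 for Huh7 (adjusted p = 7.82e-07), and neither gene had overlapping groups. HNRNPUL2 shares 44.3% of its exon bases with a readthrough gene on the same strand, so the counting may have split its reads.

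The start regions of HNRNPD and HNRNPUL1 are shown because these were the HNRNP genes with the largest changes and levels well above the filter on low counts, and both hold a palindromic E-box. They lie at chr4:82373942-82374241, minus strand, for HNRNPD and at chr19:41262307-41262606, plus strand, for HNRNPUL1, with the same limits, build and capitals as above.
HNRNPD: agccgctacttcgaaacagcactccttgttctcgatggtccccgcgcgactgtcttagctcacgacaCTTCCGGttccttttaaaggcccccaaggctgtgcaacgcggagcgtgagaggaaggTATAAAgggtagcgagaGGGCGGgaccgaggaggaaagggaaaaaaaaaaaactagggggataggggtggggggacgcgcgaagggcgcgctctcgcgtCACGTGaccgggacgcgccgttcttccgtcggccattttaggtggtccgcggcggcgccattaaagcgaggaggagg
HNRNPUL1: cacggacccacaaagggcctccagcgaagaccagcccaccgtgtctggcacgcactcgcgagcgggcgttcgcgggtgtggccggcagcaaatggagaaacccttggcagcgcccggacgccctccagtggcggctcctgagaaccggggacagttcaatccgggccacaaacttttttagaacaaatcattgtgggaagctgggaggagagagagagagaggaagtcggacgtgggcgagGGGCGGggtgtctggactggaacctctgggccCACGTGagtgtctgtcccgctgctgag
The E-box begins 27 bases before the start in HNRNPD and 24 bases after it in HNRNPUL1. The HNRNPD window lies inside the annotated gene, which on the minus strand begins at 82374503. The annotated HNRNPUL1 gene begins at 41262496, within its window. HNRNPD also holds a TATA box, a GC box and an ETS motif, and HNRNPUL1 a GC box. A short form of the cAMP response element (CRE), TGACG, is in HNRNPD as well, overlaps the E-box and was not marked. Of the 39 genes with a RefSeq start region, 9 held an E-box (23.1%), against 7.43% of all 27305 such regions. They were CLK2, CLK4, HNRNPA3, HNRNPD, HNRNPDL, HNRNPH2, HNRNPH3, HNRNPM and HNRNPUL1, of which 5 rose in both lines and HNRNPA3 fell in both. Of all 42 genes, 16 rose in both lines and 2 fell in both. All genes with an E-box were not counted by call, and a link between the motif and the changes was not tested. GC boxes were in 66.7% of the members' regions and 44.6% of all regions, CCAAT boxes (CCAAT) in 43.6% and 35.7%, TATA boxes in 12.8% and 11.95%, and ETS motifs in 12.8% and 10.7%. The short CRE form (TGACG) was in 41.0% of the members' regions and 25.0% of all regions. The full CRE (TGACGTCA) was in 0% and 1.98%, and the NRF1 core (TGCGCATGC) in 2.56% and 1.65%. The median GC content was 64.0% in the members' regions and 58.3% in all regions, and GC boxes and E-boxes are themselves rich in G and C. HNRNPA1, SRSF2 and TRA2A had no match in the table and were not searched.

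HNRNPH2, HNRNPM and HNRNPA1 also rose in both lines. HNRNPH2, a protein that binds runs of G, had 131, 127 and 144 CPM in the UBL5 siRNA libraries of HepG2, against 85.0, 79.1 and 90.7 CPM in the Ctrl-siRNA libraries. The Huh7 libraries held 128, 136 and 126 CPM with UBL5 siRNA and 93.9, 90.8 and 83.2 CPM with Ctrl-siRNA. The groups were separate, at 0.66 ± 0.09 for HepG2 (adjusted p = 0.000859) and 0.54 ± 0.06 for Huh7 (adjusted p = 4.78e-06). HNRNPM, which binds GU-rich RNA, had 434, 455 and 394 CPM in the UBL5 siRNA libraries of HepG2, against 315, 294 and 288 CPM in the Ctrl-siRNA libraries. In Huh7 the values were 454, 483 and 514 CPM with UBL5 siRNA, against 303, 294 and 347 CPM with Ctrl-siRNA. It rose by a log2 of 0.52 ± 0.08 for HepG2 (adjusted p = 0.00169) and 0.62 ± 0.07 for Huh7 (adjusted p = 5.77e-06), with no overlap. HNRNPA1, a repressor that binds splicing silencers, had 218, 228 and 245 CPM in the UBL5 siRNA libraries of HepG2, against 194, 156 and 142 CPM in the Ctrl-siRNA libraries. For Huh7 the 3 UBL5 siRNA libraries gave 263, 257 and 268 CPM and the 3 Ctrl-siRNA libraries 180.0, 168 and 161 CPM. HNRNPA1 rose by a log2 of 0.49 ± 0.12 for HepG2 (adjusted p = 0.0128) and 0.63 ± 0.05 for Huh7 (adjusted p = 4.56e-07), and the HepG2 call was lost without Ctrl-siRNA replicate 2 (0.45, adjusted p = 0.0552). Reads of HNRNPA1 and its processed pseudogenes cannot be fully told apart, and the listed pseudogenes held counts equal to 37.0% of those of HNRNPA1 with UBL5 siRNA and 34.5% with Ctrl-siRNA in HepG2, and 27.9% with UBL5 siRNA and 31.8% with Ctrl-siRNA in Huh7. With these counts added, HNRNPA1 was at 0.51 (adjusted p = 0.00894) for HepG2 and 0.59 (adjusted p = 8.16e-07) for Huh7. This alternative was chosen after seeing the data.

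HNRNPL, which binds CA repeats, HNRNPC, which binds U tracts and keeps Alu elements from being spliced as exons, and HNRNPH1, the closest relative of HNRNPH2, rose in both lines. HNRNPL was at 0.42 ± 0.08 for HepG2 (adjusted p = 0.00426) and 0.60 ± 0.05 for Huh7 (adjusted p = 3.14e-07), and its listed pseudogenes held 35.7% of its counts with UBL5 siRNA and 39.1% with Ctrl-siRNA in HepG2. HNRNPC averaged 590.4 ± 48.4 CPM with UBL5 siRNA and 479 ± 19.3 CPM with Ctrl-siRNA in HepG2, and 589.6 ± 37.0 CPM with UBL5 siRNA and 403 ± 6.19 CPM with Ctrl-siRNA in Huh7 (SD, n = 3 each), at 0.30 ± 0.08 for HepG2 (adjusted p = 0.0205) and 0.55 ± 0.05 for Huh7 (adjusted p = 1.80e-06). Its HepG2 call was lost without Ctrl-siRNA replicate 2 (0.28, adjusted p = 0.0782) and without UBL5 siRNA replicate 1 (0.25, adjusted p = 0.0594). HNRNPH1 averaged 529 ± 16.2 CPM with UBL5 siRNA and 448 ± 37.8 CPM with Ctrl-siRNA in HepG2, and 895 ± 23.9 CPM with UBL5 siRNA and 683 ± 23.0 CPM with Ctrl-siRNA in Huh7 (SD, n = 3 each). It was at 0.24 ± 0.08 for HepG2 (adjusted p = 0.0464) and 0.39 ± 0.05 for Huh7 (adjusted p = 1.06e-05). The HepG2 call of HNRNPH1 was close to the threshold and was lost with total counts (0.19, adjusted p = 0.108). With 1 library left out it held without Ctrl-siRNA replicate 1 only, with adjusted p-values of 0.151 and 0.116 without Ctrl-siRNA replicates 2 and 3, and 0.0623, 0.0853 and 0.0812 without UBL5 siRNA replicates 1, 2 and 3.

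HNRNPA3, an A/B-type hnRNP, was the only HNRNP gene that fell. HepG2 cells had 129, 115 and 119 CPM with UBL5 siRNA and 199, 164 and 156 CPM with Ctrl-siRNA. Huh7 cells had 157, 161 and 153 CPM with UBL5 siRNA and 199, 181 and 169 CPM with Ctrl-siRNA. All UBL5 siRNA libraries were below all Ctrl-siRNA libraries in both lines, at -0.52 ± 0.11 for HepG2 (adjusted p = 0.00634) and -0.22 ± 0.06 for Huh7 (adjusted p = 0.00545). Its listed pseudogenes held counts equal to 36.2% of those of HNRNPA3 with UBL5 siRNA and 22.9% with Ctrl-siRNA in HepG2, and 27.4% with UBL5 siRNA and 18.3% with Ctrl-siRNA in Huh7. With these counts added, HNRNPA3 was at -0.37 (adjusted p = 0.0231) for HepG2 and -0.12 (adjusted p = 0.0822) for Huh7, so the Huh7 call was lost. HNRNPA3 also shares 54.8% of its exon bases with other genes, mostly NFE2L2 on the opposite strand, and the part of these reads in the result was not tested.

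HNRNPA2B1, which carries RNAs along transport routes and had the highest level per transcript length in both lines, passed the test in HepG2 alone. Levels in HepG2 were 1438, 1482 and 1532 CPM with UBL5 siRNA, against 1295, 1184 and 1339 CPM with Ctrl-siRNA. Levels in Huh7 were 1412, 1543 and 1472 CPM with UBL5 siRNA, against 1555, 1382 and 1377 CPM with Ctrl-siRNA. The HepG2 groups were separate but close, at 0.22 ± 0.07 (adjusted p = 0.0388), and in Huh7 they overlapped, at 0.04 ± 0.06 (adjusted p = 0.580). The HepG2 call was lost with total counts (0.17, adjusted p = 0.0844), without Ctrl-siRNA replicates 1 and 2 (adjusted p = 0.0699 and 0.138) and without UBL5 siRNA replicates 2 and 3 (adjusted p = 0.0738 and 0.0817). Per kb of the canonical transcript, HNRNPA2B1 was at 409 CPM with UBL5 siRNA and 351 CPM with Ctrl-siRNA in HepG2, and the 42 genes ranged down to 0.400 CPM per kb with UBL5 siRNA and 0.229 CPM per kb with Ctrl-siRNA for SRSF12. HNRNPH1 had the second highest level per kb in both lines. It was at 236 CPM per kb with UBL5 siRNA and 200 CPM per kb with Ctrl-siRNA in HepG2, and 400 CPM per kb with UBL5 siRNA and 305 CPM per kb with Ctrl-siRNA in Huh7.

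HNRNPCL1 and HNRNPA1L2, close relatives of HNRNPC and HNRNPA1, had low levels. HNRNPCL1 in both lines and HNRNPA1L2 in HepG2 were at 2.28 CPM or less in every library, whereas HNRNPA1L2 in Huh7 stood at 4.59 to 6.50 CPM. HNRNPCL1 had 1.87, 2.04 and 1.02 CPM in the UBL5 siRNA libraries of Huh7, against 0.924, 0.980 and 0.953 CPM in the Ctrl-siRNA libraries. In HepG2 its UBL5 siRNA libraries stood at 1.54, 1.57 and 1.76 CPM, against 1.03, 1.34 and 0.798 CPM in its Ctrl-siRNA libraries. It rose in Huh7 by a log2 of 0.78 ± 0.28 (adjusted p = 0.0249), and in HepG2 it was 0.62 ± 0.42 (adjusted p = 0.287). The Huh7 call was lost by DESeq2 (0.80, adjusted p = 0.0573), without Ctrl-siRNA replicates 1 and 2 (adjusted p = 0.0616 and 0.0542) and without UBL5 siRNA replicates 1 and 2 (adjusted p = 0.0801 and 0.107). HNRNPA1L2 averaged 2.05 ± 0.238 CPM with UBL5 siRNA and 1.69 ± 0.602 CPM with Ctrl-siRNA in HepG2, and 5.98 ± 0.511 CPM with UBL5 siRNA and 4.88 ± 0.367 CPM with Ctrl-siRNA in Huh7 (SD, n = 3 each), at 0.28 ± 0.40 for HepG2 (adjusted p = 0.618) and 0.29 ± 0.12 for Huh7 (adjusted p = 0.0564). In Huh7 it passed the test with DESeq2 size factors (0.30, adjusted p = 0.0494), without a filter (0.30, adjusted p = 0.0466), without Ctrl-siRNA replicate 1 (0.36, adjusted p = 0.0452) and without UBL5 siRNA replicate 2 (0.36, adjusted p = 0.0443). Both genes are close copies of a much more abundant gene, so their counts may hold reads of that gene, and all exon bases of HNRNPA1L2 also lie in another gene on the same strand.

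HNRNPA0, HNRNPAB and HNRNPK also rose in Huh7 and did not pass the test in HepG2. HNRNPA0, an intronless gene whose protein binds AU-rich mRNAs, had 286, 303 and 313 CPM in the UBL5 siRNA libraries of Huh7, against 258, 252 and 282 CPM in the Ctrl-siRNA libraries. The HepG2 libraries held 209, 190.2 and 144 CPM with UBL5 siRNA and 189, 181 and 152 CPM with Ctrl-siRNA. Its groups were separate in Huh7, at 0.19 ± 0.05 (adjusted p = 0.00843), and overlapped in HepG2, at 0.06 ± 0.14 (adjusted p = 0.793). With total counts the Huh7 call was lost (0.11, adjusted p = 0.0980). HNRNPAB, a relative of HNRNPD, was at 0.12 ± 0.08 for HepG2 (adjusted p = 0.265) and 0.33 ± 0.05 for Huh7 (adjusted p = 4.21e-05). HNRNPK, which binds C-rich RNA and DNA, was at 0.19 ± 0.08 for HepG2 (adjusted p = 0.0822) and 0.14 ± 0.05 for Huh7 (adjusted p = 0.02004). With the replicate number as a block its HepG2 value was 0.19 (adjusted p = 0.0318), and by DESeq2 0.22 (adjusted p = 0.0229). Its listed pseudogenes held counts equal to 37.4% of those of HNRNPK with UBL5 siRNA and 37.1% with Ctrl-siRNA in HepG2, and 37.7% with UBL5 siRNA and 37.0% with Ctrl-siRNA in Huh7. In Huh7 the HNRNPK call was lost with total counts (0.06, adjusted p = 0.303), without Ctrl-siRNA replicate 2 (0.13, adjusted p = 0.0662), without Ctrl-siRNA replicate 3 (0.11, adjusted p = 0.0790) and without UBL5 siRNA replicate 1 (0.12, adjusted p = 0.0507). HNRNPU, also called scaffold attachment factor A, and HNRNPH3 passed the test in neither line. HNRNPU was at -0.19 ± 0.08 for HepG2 (adjusted p = 0.0807) and -0.03 ± 0.04 for Huh7 (adjusted p = 0.576), and with the block at -0.19 (adjusted p = 0.0281) in HepG2. With total counts it passed the test, at -0.24 (adjusted p = 0.0438) for HepG2 and -0.11 (adjusted p = 0.0452) for Huh7. HNRNPH3 was at 0.26 ± 0.15 for HepG2 (adjusted p = 0.205) and -0.06 ± 0.06 for Huh7 (adjusted p = 0.430).

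The effects of UBL5 siRNA in HepG2 and Huh7 were compared by the interaction of line and siRNA in 1 edgeR fit over the 12 libraries. Of the 42 genes, 7 differed between the lines (16.7%), and in all 7 the log2 fold change was lower in HepG2 than in Huh7. Over all 15668 genes tested for this difference, 21.5% differed in either direction and 11.7% were lower in HepG2. SRSF4 had the smallest adjusted p, and its difference, HepG2 minus Huh7, was -0.61 ± 0.08 (adjusted p = 0.000315). SRPK2 rose in both lines and less in HepG2, with a difference of -0.81 ± 0.18 (adjusted p = 0.00560). Without Ctrl-siRNA replicate 3 of HepG2 the SRPK2 difference was -0.59 (adjusted p = 0.001004). HNRNPF, a protein that binds runs of G, had 469.9, 435 and 439 CPM in the UBL5 siRNA libraries of HepG2, against 442, 434 and 433 CPM in the Ctrl-siRNA libraries. In Huh7 its UBL5 siRNA libraries stood at 222, 219.6 and 211 CPM, against 158, 157 and 147 CPM in its Ctrl-siRNA libraries. The groups overlapped in HepG2 and were far apart in Huh7, at 0.04 ± 0.07 for HepG2 (adjusted p = 0.703) and 0.50 ± 0.05 for Huh7 (adjusted p = 1.77e-06), and the difference was -0.43 ± 0.08 (adjusted p = 0.00220). HNRNPDL, a relative of HNRNPD, had 284, 242 and 258 CPM in the UBL5 siRNA libraries of HepG2, against 301, 253 and 285 CPM in the Ctrl-siRNA libraries. The Huh7 libraries held 382, 397 and 369.8 CPM with UBL5 siRNA and 289, 291 and 268 CPM with Ctrl-siRNA. It was at -0.10 ± 0.10 for HepG2 (adjusted p = 0.465) and 0.44 ± 0.05 for Huh7 (adjusted p = 7.65e-06), with a difference of -0.51 ± 0.11 (adjusted p = 0.00567).

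The other genes that differed were SRSF10 at -0.40 ± 0.10 (adjusted p = 0.00881), HNRNPR at -0.37 ± 0.09 (adjusted p = 0.0115) and HNRNPLL at -0.34 ± 0.11 (adjusted p = 0.0382), HepG2 minus Huh7. HNRNPR, a relative of SYNCRIP, had 331, 309 and 302 CPM in the UBL5 siRNA libraries of HepG2, against 298, 274 and 289 CPM in the Ctrl-siRNA libraries. In Huh7 the values were 376, 385 and 366 CPM with UBL5 siRNA, against 278, 258 and 245 CPM with Ctrl-siRNA. It did not pass the test in HepG2, at 0.13 ± 0.08 (adjusted p = 0.218), and rose in Huh7, at 0.53 ± 0.05 (adjusted p = 2.93e-06). HNRNPLL, a relative of HNRNPL known for its role in T cells, was at 0.06 ± 0.09 for HepG2 (adjusted p = 0.626) and 0.44 ± 0.06 for Huh7 (adjusted p = 5.10e-05). The HNRNPLL difference was close to the threshold. It was lost without Ctrl-siRNA replicate 3 of HepG2 (-0.27, adjusted p = 0.0578), without UBL5 siRNA replicates 1 and 2 of HepG2 (adjusted p = 0.0547 and 0.07999), and without any 1 of the 6 Huh7 libraries (adjusted p from 0.05004 to 0.105). Among the 4 CLK genes 0 passed this test, and the CLK1 difference, the largest of the positive ones, was 0.53 with a 95% interval from -0.13 to 1.20.

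**Figure D4:**
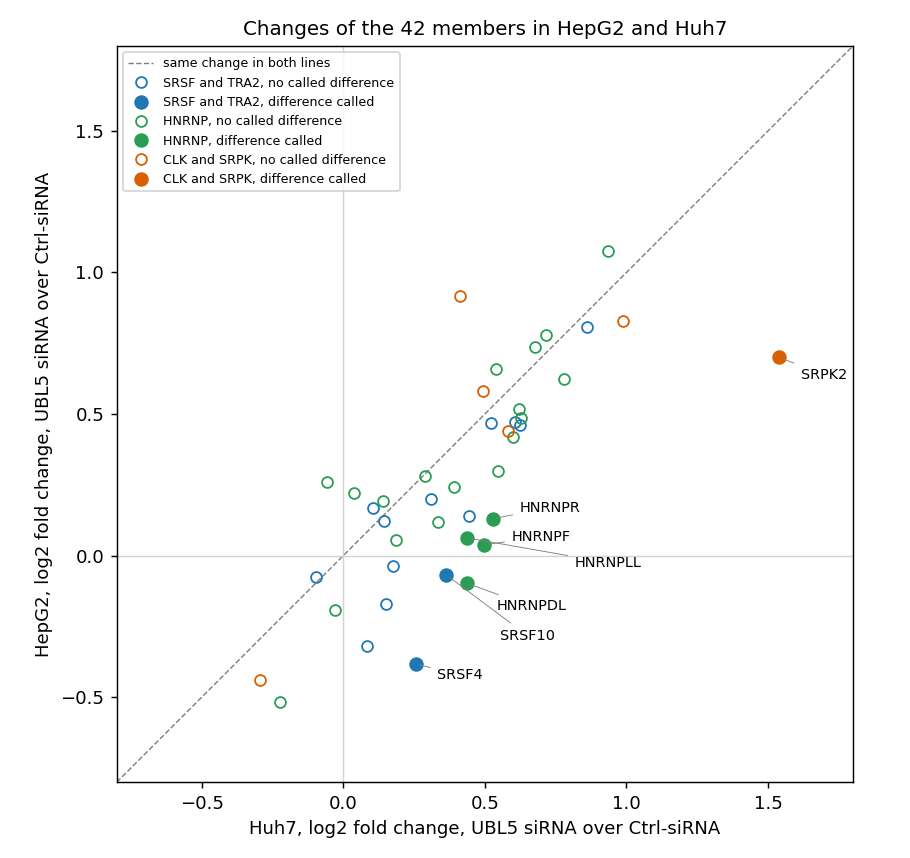
Log2 fold change, UBL5 siRNA over Ctrl-siRNA, of the 42 genes in HepG2 (y axis) and Huh7 (x axis), with the line of equal change dashed and the 7 genes whose change differed between the lines (edgeR interaction, adjusted p under 0.05) filled and named. All 7 lie below the dashed line, with SRPK2 at 0.70 in HepG2 and 1.54 in Huh7 and SRSF4 at -0.38 in HepG2 and 0.26 in Huh7.

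Paralogous SR proteins or hnRNPs can replace each other on RNA, and SRPK1 and SRPK2 both phosphorylate SR proteins. The ratio of related genes within a library is therefore given as well. The pairs were chosen after their values were seen, so the ratios are a description without a test. The ratio of SRPK2 to SRPK1 was 2.43, 2.52 and 2.44 in the UBL5 siRNA libraries of Huh7, against 0.684, 0.691 and 0.703 in the Ctrl-siRNA libraries. It was 0.485, 0.525 and 0.568 in the UBL5 siRNA libraries of HepG2, against 0.196, 0.192 and 0.345 in the Ctrl-siRNA libraries. SRPK2 counts thus exceeded those of SRPK1 in Huh7 with UBL5 siRNA and in no other group, although transcript lengths differ and the ratio is of counts and not of molecules. The ratio of HNRNPD to HNRNPDL was 1.25, 1.34 and 1.17 in the UBL5 siRNA libraries of HepG2, against 0.588, 0.605 and 0.471 in the Ctrl-siRNA libraries. It was 0.965, 0.971 and 1.05 in the UBL5 siRNA libraries of Huh7, against 0.702, 0.669 and 0.742 in the Ctrl-siRNA libraries. The ratio of HNRNPA1 to HNRNPA3 was 1.69, 1.98 and 2.06 in the UBL5 siRNA libraries of HepG2, against 0.975, 0.955 and 0.913 in the Ctrl-siRNA libraries. It was 1.67, 1.59 and 1.75 in the UBL5 siRNA libraries of Huh7, against 0.903, 0.929 and 0.954 in the Ctrl-siRNA libraries. In every pair plotted, the libraries with UBL5 siRNA were above those with Ctrl-siRNA of the same line. The ratio of TRA2B to TRA2A was 5.14, 5.80 and 6.001 in the UBL5 siRNA libraries of HepG2, against 4.14, 3.87 and 3.62 in the Ctrl-siRNA libraries. It was 2.82, 2.83 and 2.55 in the UBL5 siRNA libraries of Huh7, against 2.33, 2.33 and 2.35 in the Ctrl-siRNA libraries, so the groups were separate while TRA2A alone did not pass the test in either line.

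**Figure D5:**
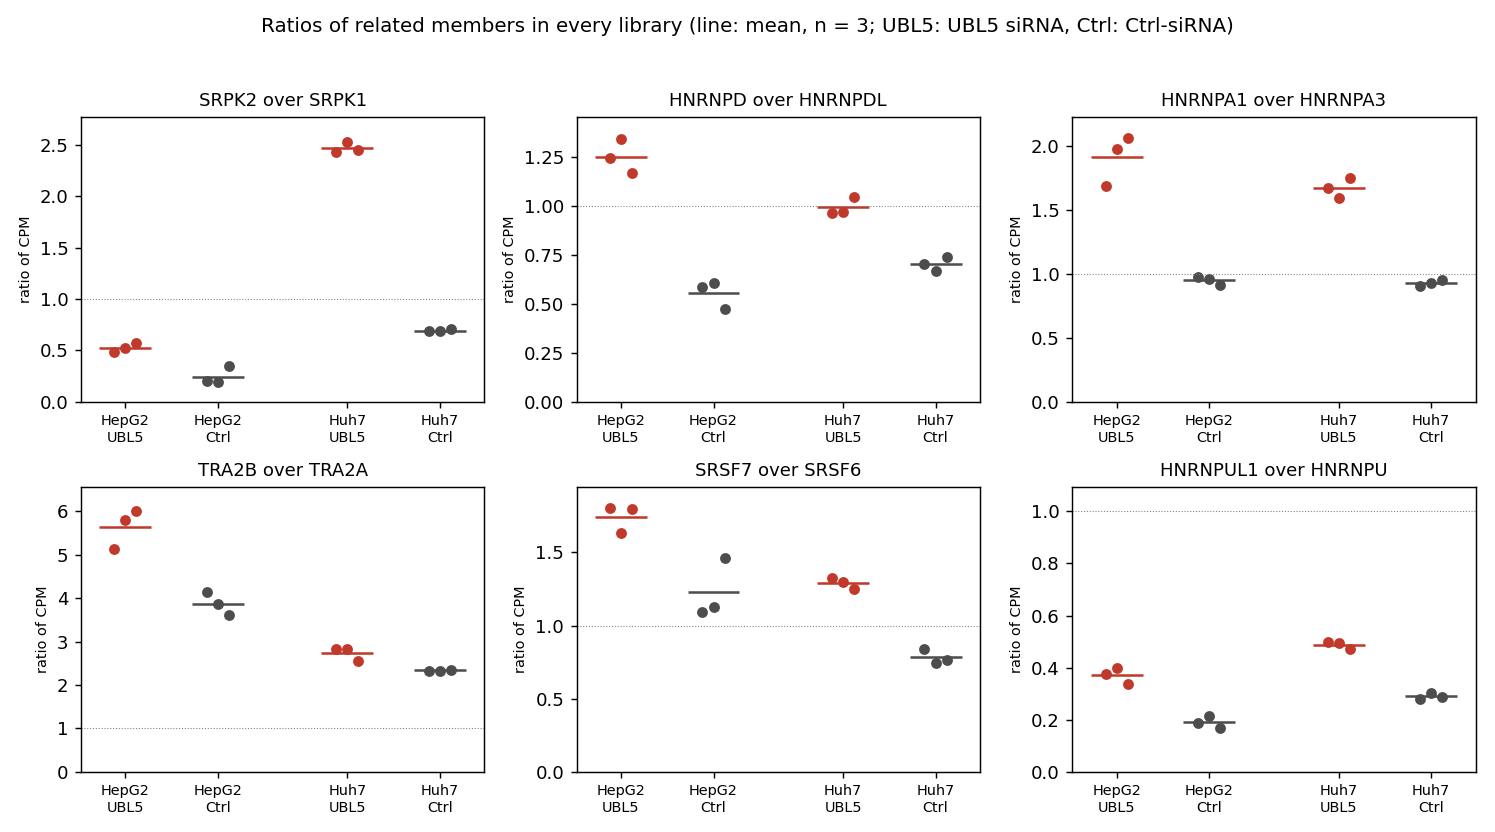
Ratio of CPM of 6 pairs of related genes in each library, UBL5 siRNA in red and Ctrl-siRNA in grey, for HepG2 and Huh7, with the mean of 3 libraries as a line and a ratio of 1 dotted. The SRPK2 to SRPK1 ratio in Huh7 lies between 2.43 and 2.52 with UBL5 siRNA and between 0.684 and 0.703 with Ctrl-siRNA, the widest gap of the 6 panels in fold (3.56).

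In GENCODE 44, 33 of the 42 genes had an annotated transcript marked for NMD and 32 had an annotated transcript with a retained intron. The counts add all transcripts of a gene, so a higher count does not tell productive mRNA from these forms. The genes whose canonical transcript has a single exon were HNRNPA0, HNRNPA1L2 and SRSF8, and SRSF8 also has an annotated NMD transcript. Of these 3 genes 0 passed the test in HepG2 (median log2 fold change 0.12) and 1 passed it in Huh7 (median 0.19). Of the 39 genes with several exons in the canonical transcript, 17 rose and 3 fell in HepG2 (median 0.24) and 30 rose and 2 fell in Huh7 (median 0.44). Among the 7 genes with over 20% of exon bases in common with some other gene, 1 rose (14.3%, against 16.5% of all genes tested) and 2 fell (28.6%, against 20.1%) in HepG2. In Huh7, 3 rose (42.9%, against 34.9%) and 2 fell (28.6%, against 36.4%). Both genes that fell in both lines are among the 7. Of the 35 other genes, 16 rose (45.7%) and 1 fell (2.86%) in HepG2, and 28 rose (80.0%) and 0 fell in Huh7. Shares over all genes of the same structure were not counted, and the part of structure in these calls was not tested.

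Related genes outside the symbol rule were counted from 4 lists, whose shares stand beside 16.5% of all genes that rose and 20.1% that fell in HepG2, and 34.9% that rose and 36.4% that fell in Huh7. Of 31 SR-related proteins tested in HepG2, 18 rose (58.1%) and 1 fell (3.23%), with a median log2 fold change of 0.43, and of 32 in Huh7, 25 rose (78.1%) and 4 fell (12.5%), with a median of 0.57. RNPS1, a part of the exon junction complex, averaged 192 ± 10.2 CPM with UBL5 siRNA and 78.9 ± 4.57 CPM with Ctrl-siRNA in HepG2, and 197 ± 6.67 CPM with UBL5 siRNA and 73.4 ± 0.779 CPM with Ctrl-siRNA in Huh7 (SD, n = 3 each), at 1.28 ± 0.09 for HepG2 (adjusted p = 7.13e-05) and 1.42 ± 0.05 for Huh7 (adjusted p = 8.29e-10). SRRM1, a splicing coactivator, was at 1.13 ± 0.08 for HepG2 (adjusted p = 8.29e-05) and 1.21 ± 0.05 for Huh7 (adjusted p = 5.14e-09). SCAF8, which binds the tail of RNA polymerase II, was at 0.68 ± 0.10 for HepG2 (adjusted p = 0.000960) and 1.18 ± 0.05 for Huh7 (adjusted p = 2.69e-09). RNPS1, SRRM1 and SCAF8 thus rose in both lines. Of 22 members of the hnRNP family under other symbols, 6 rose (27.3%) and 3 fell (13.6%) in HepG2, with a median of 0.11, and 13 rose (59.1%) and 5 fell (22.7%) in Huh7, with a median of 0.36. PTBP3, a polypyrimidine tract binding protein, was at 1.26 ± 0.08 for HepG2 (adjusted p = 7.13e-05) and 0.73 ± 0.05 for Huh7 (adjusted p = 2.93e-07). RALY, a relative of HNRNPC, fell in both lines, at -0.72 ± 0.11 for HepG2 (adjusted p = 0.00142) and -0.65 ± 0.05 for Huh7 (adjusted p = 1.66e-07). MSI1, a Musashi protein, averaged 0.427 ± 0.0486 CPM with UBL5 siRNA and 0.395 ± 0.384 CPM with Ctrl-siRNA in HepG2, and 81.8 ± 2.10 CPM with UBL5 siRNA and 35.4 ± 3.10 CPM with Ctrl-siRNA in Huh7 (SD, n = 3 each), and rose in Huh7, at 1.21 ± 0.07 (adjusted p = 2.71e-08).

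Of 24 other kinases, phosphatases, importers and chaperones that act on SR proteins or hnRNPs, 5 rose (20.8%, against 16.5% of all genes) and 7 fell (29.2%, against 20.1%) in HepG2, with a median log2 fold change of -0.03, and 14 rose (58.3%, against 34.9%) and 2 fell (8.33%, against 36.4%) in Huh7, with a median of 0.25. DYRK1A, a kinase that phosphorylates splicing factors, was at 0.92 ± 0.11 for HepG2 (adjusted p = 0.000502) and 0.96 ± 0.06 for Huh7 (adjusted p = 3.76e-08). PPP1R10, a nuclear targeting subunit of protein phosphatase PP1, was at 0.49 ± 0.09 for HepG2 (adjusted p = 0.00371) and 1.16 ± 0.05 for Huh7 (adjusted p = 3.04e-09). PRPF4B, a spliceosome kinase, was at 0.50 ± 0.09 for HepG2 (adjusted p = 0.00274) and 0.80 ± 0.05 for Huh7 (adjusted p = 1.08e-07). These 3 genes rose in both lines. Of 16 tissue-dependent splicing regulators tested in HepG2, 3 rose (18.8%) and 5 fell (31.2%), with a median of -0.11, and of 18 in Huh7, 7 rose (38.9%) and 8 fell (44.4%), with a median of 0.09. The shares that rose were near those of all genes. TIA1, which binds U-rich introns and helps U1 to bind, fell in both lines, at -0.96 ± 0.11 for HepG2 (adjusted p = 0.000380) and -1.14 ± 0.06 for Huh7 (adjusted p = 3.11e-08). ZRANB2, a zinc finger splicing factor, fell in both, at -1.29 ± 0.13 for HepG2 (adjusted p = 0.000244) and -1.27 ± 0.09 for Huh7 (adjusted p = 1.39e-07). QKI, which binds introns and mRNAs through a KH domain, rose in both, at 0.51 ± 0.14 for HepG2 (adjusted p = 0.0184) and 0.82 ± 0.05 for Huh7 (adjusted p = 3.23e-08).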

How the data were processed

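TruSeq stranded mRNA libraries were sequenced as single reads of 50 bases. Per the labels and the study's methods, the authors used bcl2fastq for demultiplexing, FastQC 0.11.9 for read quality, STAR 2.7.6a for alignment to GRCh38, and featureCounts for gene counts. For featureCounts, version, annotation and strand setting are not given in the sources used here. The deposited tables hold these raw counts, not normalized, for the 6 libraries of each line, in 2 files a line by direction of the authors' fold change. All 12 count columns were matched to samples by name. The columns of the authors' own DESeq2 1.30.0 comparison (mean, log2 fold change, its error, statistic, p and adjusted p) were not used.

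Counts were scaled by TMM in edgeR 4.0.16 (R 4.3.3) after filterByExpr with a minimum count of 10 and a total of 15, and tested by the quasi-likelihood F test within each line (3 against 3 libraries) and for the interaction of line and siRNA over 12 libraries. P-values were adjusted by Benjamini-Hochberg over all genes tested, and a gene was called at an adjusted p under 0.05. The standard error is the log2 fold change divided by the square root of F. CPM per kb used the canonical transcript of GENCODE 44, which also gave exons and overlaps and held 17603 of 17640 identifiers of HepG2 and 18398 of 18434 of Huh7. Start regions were from RefSeq on GRCh38.p14, 1 per gene. For genes with many reads the spread between libraries sets the precision, and for those with about 1 CPM depth does too. The steps were tested on simulated counts in which 200 genes were changed, far fewer than the genes called in the data (5780 in HepG2, 12098 in Huh7 and 3374 by the interaction test). Of simulated log2 changes of 0.5, 18.2% were recovered in HepG2, 70.8% in Huh7 and 7.46% by the interaction test. Of changes of 1, 63.1%, 90.9% and 43.9% were recovered in the same order. The adjustment of p-values is stricter when few genes change, so these rates do not give the power in the data. A gene not called may still have changed, above all in HepG2, where the spread between libraries was wider. Libraries were compared within each group, and none duplicated another.

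The genes and lists were chosen with earlier results of these data known. Values of every library were given, by rule, for the 4 highest and 2 lowest called genes of each family, those with opposite calls, the 4 with the smallest interaction p and all kinases; for each list, the 3 genes with the smallest adjusted p were named. HNRNPH2, HNRNPM, HNRNPA1, HNRNPA2B1, SRSF10, TRA2B and HNRNPR were added after their values were seen. Replicate numbers come from the labels. Among genes of at least 10 CPM, same-numbered libraries deviated together in HepG2 (correlations 0.408, 0.319 and 0.336), so a fit with the number as a block was read beside the results. Alternatives were DESeq2 1.42.0, its size factors, total counts, no filter, the block, each library left out, and pseudogene counts added. Figures used matplotlib 3.10.9.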

Additional observations from a re-analysis of the deposited data

Results flagged for a closer look

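In 7 of the 42 genes the effect of UBL5 siRNA differed between HepG2 and Huh7 by the test of the difference itself (edgeR interaction over 12 libraries, adjusted over all genes tested). This is 16.7% of the 42 genes, against 21.5% of all genes tested, so the count is not a result about these genes as a group. The differences are given as HepG2 minus Huh7 on the log2 scale, and all were negative. SRSF4 differed by -0.61 ± 0.08 (adjusted p = 0.000315), and it was lower with UBL5 siRNA in 3 of 3 HepG2 libraries and higher in 3 of 3 Huh7 libraries than in any Ctrl-siRNA library of the line. SRPK2 differed by -0.81 ± 0.18 (adjusted p = 0.00560), with rises in both lines. HNRNPF differed by -0.43 ± 0.08 (adjusted p = 0.00220) and HNRNPDL by -0.51 ± 0.11 (adjusted p = 0.00567). SRSF10 differed by -0.40 ± 0.10 (adjusted p = 0.00881), HNRNPR by -0.37 ± 0.09 (adjusted p = 0.0115) and HNRNPLL by -0.34 ± 0.11 (adjusted p = 0.0382). Of these, HNRNPF, HNRNPDL, SRSF10, HNRNPR and HNRNPLL passed the test in Huh7 and not in HepG2. HepG2 and Huh7 differ in the spread between libraries and were each counted in tables of their own, and the part of these in the differences was not tested.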

How the results depend on the processing

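Counts of calls among the 42 genes held within 1.5 times under every alternative. In HepG2, 20 genes were called, against 21 by DESeq2, 20 with DESeq2 size factors in edgeR, 19 with total counts, 20 without a filter, 20 with pseudogene counts added, and 16 to 20 with each library left out in turn. In Huh7, 33 were called, against 31, 34, 31, 36, 32 and 30 to 36 in the same order. For the difference between the lines, 7 were called, against 7 by DESeq2, 7 with its size factors, 7 without a filter and 6 to 8 with each library left out. Over all genes, HepG2 calls numbered 5780 and ran from 3819 (without UBL5 siRNA replicate 2) to 7270 (without Ctrl-siRNA replicate 3). Of the calls on single genes, 15 of 20 in HepG2 and 27 of 33 in Huh7 held in all 12 alternatives, and 6 of 7 differences between the lines in all 16.

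With the replicate number as a block, 25 of the 42 genes were called in HepG2 (20 higher and 5 lower), where the numbers pair the libraries, and no call of the fit without the block was lost. Over all 15755 genes tested in HepG2, 6431 were called with the block (2982 higher and 3449 lower). In Huh7 same-numbered libraries correlated at 0.437, 0.0625 and 0.567, and the replicate 2 libraries did not correlate best with each other, so the numbers were not taken as pairs. The block gave 38 calls there (35 higher and 3 lower), where 12672 of all 16965 genes tested were called (6262 higher and 6410 lower). It gave 10 differences between the lines among the 42 genes. Over all 15668 genes tested, the differences also became more, from 3374 to 4338, so the 10 are not a result about the 42 genes as a group.

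Values that changed sign belonged to genes not called in that line and close to 0. With total counts HNRNPF in HepG2 was -0.011 and HNRNPA2B1 in Huh7 was -0.045. With each library left out, HNRNPA0 ran from -0.054 to 0.22, SRSF10 from -0.10 to 0.0048, SRSF6 from -0.23 to 0.072 and SRSF9 from -0.076 to 0.020 in HepG2, and HNRNPH3 from -0.11 to 0.00072 in Huh7. The cause was not tested. Total counts were tried within each line only. Genes near 1 CPM are limited by depth, and HNRNPCL1, HNRNPA1L2 and SRSF12 in HepG2 are of this kind.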
